A study of Mus musculus with 6 samples.

Results

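Vascular endothelial growth factors (VEGFs) and angiopoietins are the secreted ligands through which the cells around a vessel signal to its endothelium. The 10 genes described here are the VEGF ligands Vegfa, Vegfb, Vegfc and Pgf, the VEGF receptors Kdr and Flt1, the angiopoietins Angpt1 and Angpt2, their receptor Tek and the related receptor Tie1. They were chosen by symbol, and all 10 were found among the 41605 genes of each of the 6 count matrices. Sciatic nerves of mice were dissociated on postnatal day 1 (P1) or 60 (P60), and 3 suspensions per age were run as single-cell libraries on the 10x Genomics Chromium platform. All mice, on the C57bl/6J background, were P0Cre-/+ : ReYFP Tg/+ : βAct-DsRed Tg/+, so that Cre driven by the P0 promoter marks Schwann cells with a yellow fluorescent protein and all cells carry DsRed. Both ages carried the same transgenes, and the comparison is between ages only. Each suspension pooled cells of male and female mice in equal numbers and DsRed+ cells were sorted. At P1 part of the cells positive for both reporters were held back, which sets the Schwann cell share. Animals were not perfused, and no date or batch is given, so age and batch cannot be told apart.

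VEGF-A binds both Kdr, the main signalling receptor of blood vessel endothelium, and Flt1, which holds VEGF-A with high affinity and signals weakly. VEGF-B and placental growth factor (encoded by Pgf) bind Flt1, and VEGF-C acts chiefly on lymphatic endothelium through Flt4. Angiopoietin-1 activates Tek (also called Tie2) and stabilizes vessels, whereas angiopoietin-2 can activate or antagonize Tek depending on context, and Tie1 is a partner of Tek. In peripheral nerve, vessels inside the endoneurium form the blood-nerve barrier, while those of the outer sheath, the epineurium, are more permeable.

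The promoters of the 4 receptor genes are shown because all 4 transcripts were highest in endothelial cells at both ages. RefSeq (GRCm38.p6) gave a promoter for 8 of the 10 members, and the 250 bases before the RefSeq gene start are printed 5′ to 3′ along the gene's own strand. That start can differ from the gene spans given further below. The span of Tie1 reaches 118490061, so most of its window lies inside that span, as do a few bases of the Kdr window. Capitals mark GGAA, the core letters of binding sites for ETS transcription factors, and its reverse complement TTCC.
Kdr, chr5:75978456-75978705, minus strand: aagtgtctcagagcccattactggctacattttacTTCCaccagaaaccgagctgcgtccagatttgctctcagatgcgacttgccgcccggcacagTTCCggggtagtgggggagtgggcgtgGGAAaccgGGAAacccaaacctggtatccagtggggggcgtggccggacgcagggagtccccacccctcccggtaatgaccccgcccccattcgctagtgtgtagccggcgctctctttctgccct
Flt1, chr5:147726012-147726261, minus strand: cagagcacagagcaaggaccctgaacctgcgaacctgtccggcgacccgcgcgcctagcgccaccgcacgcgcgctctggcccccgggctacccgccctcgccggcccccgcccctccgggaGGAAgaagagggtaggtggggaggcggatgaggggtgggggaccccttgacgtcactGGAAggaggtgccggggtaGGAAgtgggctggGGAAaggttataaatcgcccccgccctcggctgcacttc
Tek, chr4:94739039-94739288, plus strand: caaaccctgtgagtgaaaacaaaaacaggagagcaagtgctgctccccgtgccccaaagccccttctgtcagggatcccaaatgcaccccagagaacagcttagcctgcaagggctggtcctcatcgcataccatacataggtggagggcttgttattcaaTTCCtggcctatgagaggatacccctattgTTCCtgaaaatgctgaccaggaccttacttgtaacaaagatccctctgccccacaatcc
Tie1, chr4:118489850-118490099, minus strand: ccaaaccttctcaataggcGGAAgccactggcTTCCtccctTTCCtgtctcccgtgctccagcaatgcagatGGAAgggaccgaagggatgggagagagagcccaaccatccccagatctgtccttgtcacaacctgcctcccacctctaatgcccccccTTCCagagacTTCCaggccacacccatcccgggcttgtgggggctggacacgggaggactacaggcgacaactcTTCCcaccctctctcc
Counted on both strands, the core occurred 7 times in the window of Tie1, 4 times in that of Kdr, 4 times in that of Flt1 and 2 times in that of Tek. These letters are common, since 93.5% of 32851 mouse promoter windows of the same length held at least 1 and 18.0% held 5 or more. A match is a description of the sequence, and no binding was measured.

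Cells were grouped into Schwann, fibroblast, endothelial, mural and immune classes and into finer types by marker genes, and every name below stands for cells that are like that type by these markers. The list for non-myelinating Schwann cells also marks immature ones. Of Schwann cells at P1, the study named only immature, pro-myelinating and proliferating clusters. Comparisons of the myelinating and non-myelinating types with age thus set such early cells beside those of P60. The study calls its own perineurial name at P1 tentative. Perineurial cells here averaged 32.15 CPM of their marker Slc2a1 at P1 and 1138 CPM at P60. Of the 900 P1 cells of that name, 189 lay in a sub-cluster high in proliferation markers. The 10 members and 7 related genes were kept out of the genes that drove the clustering. The classes held 3214, 5732, 727, 602 and 991 cells at P1 and 362, 7823, 1745, 850 and 1303 cells at P60, in that order. Of the class markers, 7 of 7 Schwann, 6 of 6 fibroblast, 8 of 8 endothelial, 14 of 16 mural and 8 of 8 immune markers were highest in their own class in all 6 libraries. At P1 the endothelial cells divided into a type marked by Cd300lg (68.0 to 70.9% of endothelial cells per library) and an arterial type (23.8 to 27.6%), and no cells took the barrier or the lymphatic name. A P1 sub-cluster of 36 endothelial cells scored higher for the lymphatic markers (0.741) than for the arterial ones (0.543). It missed the required lead of 1.4 and stayed without a finer name, so lymphatic cells at P1 are not excluded. The P1 arterial type was a sub-cluster of 187 cells that scored 1.0 for arterial, 0.698 for Cd300lg and 0.683 for barrier markers. It thus passed that lead narrowly, which limits every comparison of arterial cells with age below. At P60, barrier endothelial cells made up 52.0 to 53.5% of the class, Cd300lg cells 31.6 to 32.2%, arterial cells 7.94 to 8.80% and lymphatic cells 6.35 to 7.04%. A further 266 cells of P60 carried endothelial and mural markers together and were kept out of both classes.

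Levels are counts of unique molecular identifiers (UMIs) summed over the cells of a type in a library and divided by that sum's total, in counts per 1000000 (CPM), and are compared only within a gene. Libraries held 20203440 to 30334608 UMIs over all barcodes, 3435 to 4586 cells were kept per library, and pairs of libraries shared 13 to 32 cell barcodes. P60 replicate 3 stood apart, with 16.2% of its cells over 10% mitochondrial counts against 2.97% and 4.84% in the other P60 libraries, and with sub-clusters made almost wholly of its cells. Changes with age are log2 differences, P60 minus P1, with their standard error (SE), from edgeR's quasi-likelihood test on the summed counts of 3 libraries against 3, adjusted over all genes tested by the Benjamini-Hochberg method. A change is called where the adjusted p is under 0.05. The libraries of an age are listed in the order of replicates 1, 2 and 3. Nothing says which animals went into which suspension, so p-values measure only the spread between these libraries.

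Vegfa (ENSMUSG00000023951, chr17:46016993-46032369, minus strand in GRCm38) encodes the principal growth factor of blood vessel endothelium. Its level was highest in epineurial fibroblasts at both ages. There it stood at 25.6, 30.7 and 29.5 CPM at P1 and at 24.6, 31.6 and 107 CPM at P60. The ages overlapped, and the higher P60 mean rested on replicate 3. The difference was 0.83 (SE 0.46, adjusted p = 0.16), and without P60 replicate 3 it was -0.08 (SE 0.12, adjusted p = 0.61). Of the 1330 epineurial cells of that library, 1161 lay in 3 sub-clusters drawn at least 90% from it. Among the 4 epineurial sub-clusters with at least 20 cells in every P60 library, replicate 3 was the highest in 3. There the higher level was present also among the few cells that grouped with those of the other libraries. Replicate 3 had only 20 to 67 cells in each of the 4. Where it was not the highest it was the lowest, at 12.8 CPM against 14.4 and 17.4 CPM. Replicate 3 was the highest P60 library for Vegfa in the Schwann, endothelial and mural classes as well, and the part of its cell quality in this was not tested.

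Vegfa fell in perineurial cells, which form the sheath around each nerve fascicle, with the limit on the P1 name given above. Their levels were 9.28, 14.5 and 17.6 CPM at P1 and 1.64, 3.31 and 8.91 CPM at P60. The ages did not overlap, though P60 replicate 3 lay just under the lowest P1 library. Vegfa fell by 1.60 (SE 0.43, adjusted p = 0.0063), and the fall was called in 6 of 6 fits with 1 library left out. Endoneurial fibroblasts held 8.42, 7.96 and 6.68 CPM at P1 and 10.6, 8.54 and 16.7 CPM at P60, a difference of 0.73 (SE 0.29, adjusted p = 0.054) that did not pass the test. Schwann cells of P60 gave 4 Vegfa UMIs in all, every one in replicate 3, so a change was not detectable at this depth. At P1 the order ran from epineurial to perineurial to endoneurial cells, with no overlap between neighbours. At P60 each of the 5 highest types overlapped with the next.

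Vegfb (ENSMUSG00000024962, chr19:6982473-6987651, minus strand), a ligand of Flt1, was spread over many types, and most neighbours in the order of levels overlapped. In epineurial fibroblasts it stood at 23.0, 23.6 and 22.9 CPM at P1 and at 12.8, 14.0 and 14.5 CPM at P60. Every P60 library lay below every P1 library, and Vegfb fell by 0.81 (SE 0.14, adjusted p = 0.00076). Endoneurial fibroblasts held 25.2, 25.4 and 23.1 CPM at P1 and 9.67, 19.2 and 13.5 CPM at P60. There too the ages did not overlap, and Vegfb fell by 0.72 (SE 0.23, adjusted p = 0.02), which was not called without P60 replicate 1 (-0.51, SE 0.26, adjusted p = 0.13). In immune cells 19.8, 15.6 and 27.4 CPM at P1 stood against 8.86, 7.63 and 8.89 CPM at P60, and Vegfb fell by 1.22 (SE 0.26, adjusted p = 0.0035). The summed mast cell markers of this class ran from 549 to 1074 CPM at P1 and from 2.18 to 12.2 CPM at P60. The part of such differences in make-up was not tested. Mural cells stood the other way round, at 14.0, 13.4 and 15.6 CPM at P1 and 20.1, 17.6 and 26.0 CPM at P60, which did not pass the test (0.73, SE 0.30, adjusted p = 0.082).

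Vegfc (ENSMUSG00000031520, chr8:54077606-54187096, plus strand), the ligand best known for lymphatic growth, was highest in arterial endothelial cells. They held 144, 137 and 109 CPM at P1 and 129, 150.1 and 99.3 CPM at P60. The ages overlapped, and the difference was -0.06 (SE 0.21, adjusted p = 0.86). Cd300lg cells came next, at 20.6, 25.1 and 18.7 CPM at P1 and 32.4, 24.3 and 43.5 CPM at P60 (0.63, SE 0.26, adjusted p = 0.076). Barrier cells of P60 were lower, at 10.7, 5.51 and 5.80 CPM, and at both ages all arterial libraries lay above those of the next type. Lymphatic endothelial cells gave 0 Vegfc UMIs in 116 cells, which allows a share of up to 2.59% of cells with a UMI. Over the whole endothelial class Vegfc fell by 1.26 (SE 0.18, adjusted p = 0.00015). Without the barrier and lymphatic cells of P60, a sum chosen after the values were seen, the difference was 0.05 (SE 0.18, adjusted p = 0.84).

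Pgf (ENSMUSG00000004791, chr12:85166635-85177790, minus strand), which encodes placental growth factor, had mural and fibroblast sources that changed in different directions. Vascular smooth muscle cells had the highest mean at both ages, with 115, 80.7 and 84.0 CPM at P1 and 138, 156 and 112 CPM at P60. The ages overlapped, and Pgf rose by 0.75 (SE 0.23, adjusted p = 0.019), which was not called when P1 replicate 2, P1 replicate 3 or P60 replicate 2 was left out (0.66 to 0.67, adjusted p = 0.061 to 0.082). Pericytes, which wrap capillaries, held 89.1, 54.2 and 34.0 CPM at P1 and 14.3, 20.8 and 15.3 CPM at P60. At P1 their highest library lay within the smooth muscle range, so these types overlapped. No P60 library reached the lowest P1 library, and Pgf fell by 1.79 (SE 0.42, adjusted p = 0.0042) in pericytes. The P60 values rested on 4, 8 and 5 UMIs. The mural class as a whole rose by 0.68 (SE 0.21, adjusted p = 0.027), which was not called when P1 replicate 2, P1 replicate 3 or P60 replicate 1 was left out (0.53 to 0.64, adjusted p = 0.061 to 0.14), while pericytes made up 63.6 to 66.7% of its cells at P1 and 40.8, 49.2 and 23.4% at P60.

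Perineurial cells and endoneurial fibroblasts gained Pgf. Perineurial cells held 8.91, 12.1 and 12.3 CPM at P1 and 74.8, 61.3 and 38.7 CPM at P60, and Pgf rose by 2.44 (SE 0.26, adjusted p = 4e-06). Endoneurial fibroblasts held 5.93, 4.85 and 3.51 CPM at P1 and 26.4, 26.7 and 31.2 CPM at P60, and Pgf rose by 2.66 (SE 0.25, adjusted p = 1.2e-06). In both types the ages were well apart, and the rise was called in 6 of 6 fits with 1 library left out. Epineurial fibroblasts stood at 21.1, 15.6 and 16.9 CPM at P1 and 21.0, 21.2 and 17.1 CPM at P60, which overlapped (0.10, SE 0.17, adjusted p = 0.66). At P60 perineurial cells had 58.9% of the mural level of Pgf, and 0 of the 16 mural markers lay that high in them (0.288 to 38.8%). Lymphatic endothelial cells of P60 held 64.7, 50.7 and 22.5 CPM, from 10, 9 and 5 UMIs. Arterial cells of P60 gave 0 Pgf UMIs in 148 cells, which allows a share of up to 2.03% of cells with a UMI. The endothelial class fell by 1.21 (SE 0.34, adjusted p = 0.014), which was not called without P1 replicate 2 (-0.93, SE 0.38, adjusted p = 0.086), and without barrier and lymphatic cells the difference was -0.64 (SE 0.58, adjusted p = 0.42).

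**Figure D1:**
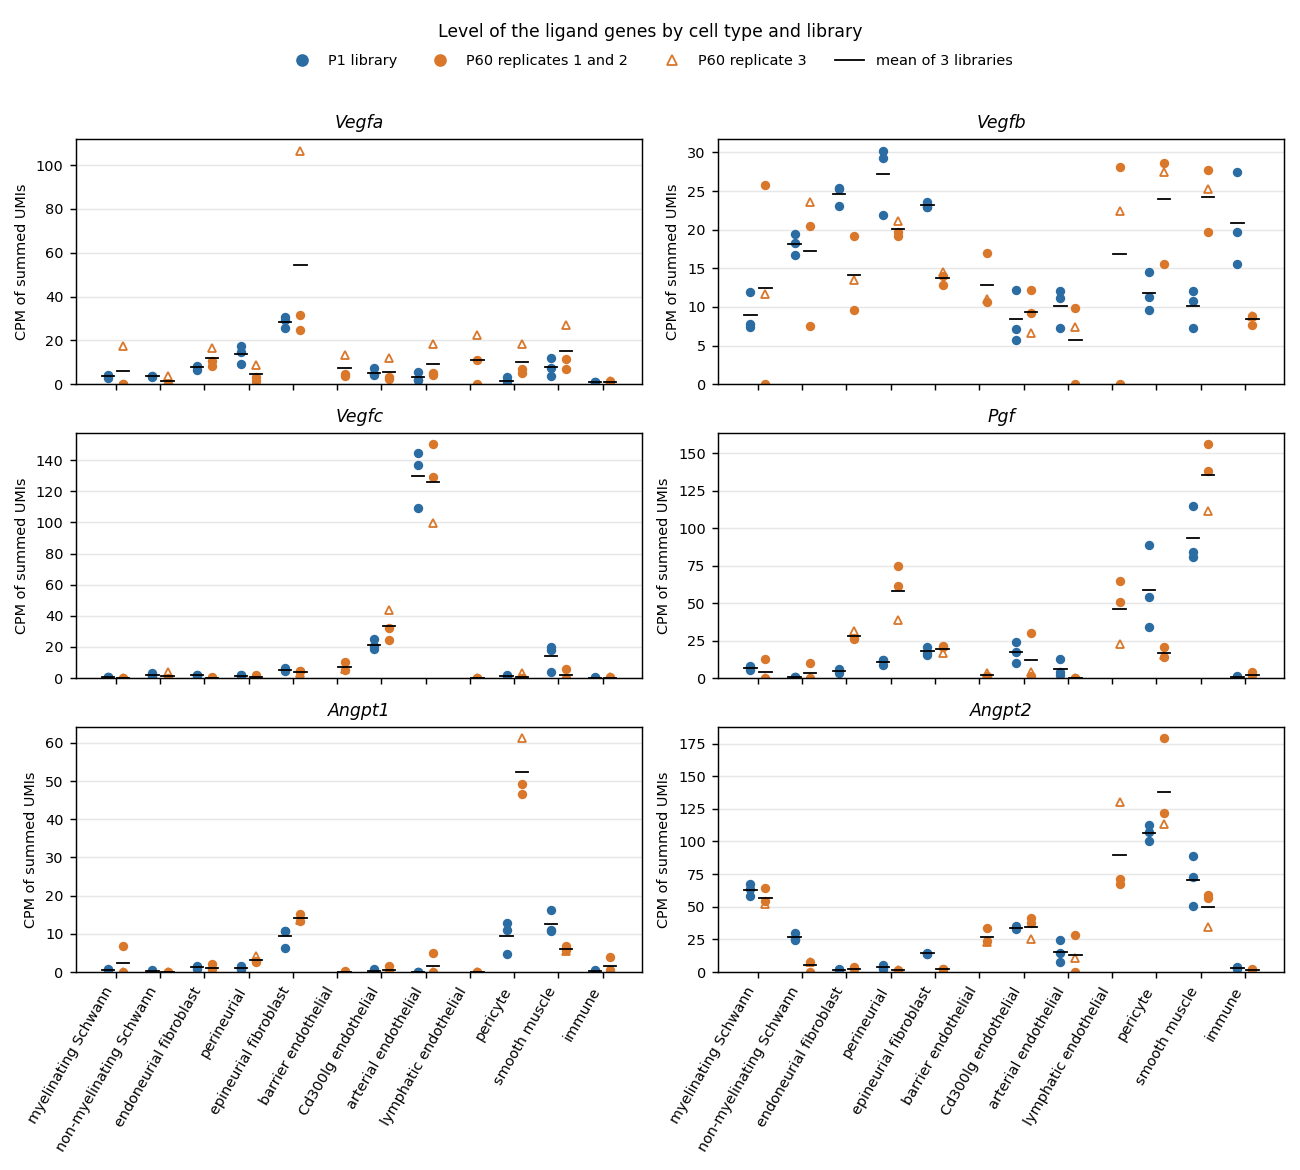
Levels of the 6 ligand genes, as CPM of summed UMIs, by cell type, with 1 point per library, P60 replicate 3 drawn as an open triangle, P1 beside P60, and a bar at the mean of 3 libraries. Barrier and lymphatic endothelial cells have no P1 points because no P1 cells took those names, though 36 cells came near the lymphatic one. By mean, Vegfa is highest in epineurial fibroblasts, with P60 replicate 3 far above the rest. Vegfc is highest by mean in arterial endothelial cells, Pgf in smooth muscle cells and Angpt2 in pericytes. Angpt1 is higher in P60 pericytes (46.5, 49.3 and 61.2 CPM) than in P1 pericytes.

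Angpt1 (ENSMUSG00000022309, chr15:42424723-42676977, minus strand), the activating ligand of Tek, rose in pericytes. They held 10.9, 4.79 and 13.0 CPM at P1 and 46.5, 49.3 and 61.2 CPM at P60. All P60 libraries lay above all P1 libraries, though the P1 values rested on 6, 3 and 8 UMIs. Angpt1 rose by 2.40 (SE 0.38, adjusted p = 0.00013), called in 6 of 6 fits with 1 library left out. Smooth muscle cells stood at 10.8, 16.1 and 11.0 CPM at P1 and 5.64, 6.93 and 5.63 CPM at P60, too few UMIs to be tested. Epineurial fibroblasts were a further source, with 10.9, 6.35 and 10.8 CPM at P1 and 15.3, 13.4 and 13.5 CPM at P60. The ages did not overlap there, but the difference of 0.54 (SE 0.22, adjusted p = 0.061) did not pass the test. The fibroblast class as a whole rose by 1.28 (SE 0.16, adjusted p = 0.00013), while the epineurial share of its cells went from 29.0 to 30.4% at P1 to 51.7 to 56.4% at P60. At P1 smooth muscle cells overlapped in level with pericytes, and pericytes with epineurial fibroblasts, which lay above all further types without overlap. At P60 pericytes, epineurial fibroblasts and smooth muscle cells followed each other without overlap. Angpt1 overlaps Gm17473 on the other strand, and whether counting used the strand is not given in the sources used here.

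Angpt2 (ENSMUSG00000031465, chr8:18690263-18741562, minus strand), the context-dependent ligand of Tek, had its highest mean in pericytes. They held 113, 100.5 and 107 CPM at P1 and 179, 122 and 113 CPM at P60. The lowest P60 library lay just above the highest P1 library, and the difference of 0.32 (SE 0.19, adjusted p = 0.25) did not pass the test. Smooth muscle cells held 50.38 to 88.81 CPM at P1 and 34.71 to 58.95 CPM at P60 (-0.33, SE 0.31, adjusted p = 0.43). At both ages their range overlapped with that of myelinating Schwann cells. Myelinating Schwann cells were a further source, at 58.0, 67.1 and 63.9 CPM at P1 and 64.5, 54.4 and 52.3 CPM at P60 (-0.18, SE 0.27, adjusted p = 0.68). Their level was 71.8% of the mural level at P1 and 65.0% at P60, and none of the 16 mural markers lay that high in these cells (at most 13.3% and 17.7%). Non-myelinating Schwann cells, a name that takes in immature cells at P1, had 24.8, 30.2 and 25.1 CPM at P1 and 0, 7.53 and 7.84 CPM at P60. Angpt2 fell by 2.09 (SE 0.66, adjusted p = 0.019) in them on 3 P60 UMIs, and the change was not called without P60 replicate 3 (-2.67, SE 1.01, adjusted p = 0.06). The Schwann class fell by 0.74 (SE 0.25, adjusted p = 0.032), which was not called when P1 replicate 2, P1 replicate 3, P60 replicate 2 or P60 replicate 3 was left out (-0.80 to -0.57, adjusted p = 0.051 to 0.18).

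Epineurial fibroblasts lost Angpt2. Their levels were 14.7, 14.0 and 14.0 CPM at P1 and 2.47, 2.39 and 1.34 CPM at P60. The ages lay far apart, Angpt2 fell by 2.79 (SE 0.24, adjusted p = 6.4e-06), and the fall was called in 6 of 6 fits with 1 library left out. In Cd300lg endothelial cells Angpt2 stood at 35.4, 33.5 and 33.1 CPM at P1 and 41.6, 37.6 and 25.1 CPM at P60, which overlapped (0.04, SE 0.22, adjusted p = 0.91). Lymphatic endothelial cells of P60 held 71.2, 67.6 and 130.4 CPM, above the barrier cells at 23.6, 33.9 and 22.7 CPM. The highest lymphatic library lay within the range of P60 pericytes (113 to 179 CPM), so these types overlapped. The summed level of the 16 mural markers in endothelial cells ran from 182 to 440 CPM at P1, with 1 marker at 0, and from 1418 to 2067 CPM at P60, and their part in the endothelial values of Angpt2 and Pgf was not tested. Angpt2 overlaps Mcph1 on the other strand, which has the same limit as for Angpt1.

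Kdr (ENSMUSG00000062960, chr5:75932827-75978458, minus strand), the main VEGF-A receptor, was highest in endothelium at both ages and differed in level between endothelial types at P60. Cd300lg cells held 350.0, 404 and 416 CPM at P1 and 405, 380.3 and 556 CPM at P60, which overlapped (0.21, SE 0.15, adjusted p = 0.32). Arterial cells overlapped with Cd300lg cells at P1, at 372, 410.0 and 348 CPM, and stood at 154, 73.0 and 51.5 CPM at P60. There the ages lay far apart, Kdr fell by 2.09 (SE 0.24, adjusted p = 6.6e-06), and the fall was called in 6 of 6 fits with 1 library left out. The limit on the P1 arterial name given above applies to this fall. Barrier cells of P60 held 148, 163 and 176 CPM and lymphatic cells 337, 383 and 544 CPM. At P60 the Cd300lg and lymphatic libraries thus overlapped and lay above all barrier and arterial libraries. In the whole endothelial class Kdr fell by 0.65 (SE 0.13, adjusted p = 0.0015), and without barrier and lymphatic cells the difference was -0.09 (SE 0.13, adjusted p = 0.62).

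Flt1 (ENSMUSG00000029648, chr5:147561604-147726011, minus strand), the high-affinity VEGF receptor, rose in blood endothelium. Cd300lg cells held 271, 289 and 265 CPM at P1 and 798, 749.6 and 1039 CPM at P60, and Flt1 rose by 1.66 (SE 0.14, adjusted p = 8.5e-07). Arterial cells held 482, 446 and 410.4 CPM at P1 and 942, 714 and 743 CPM at P60, and Flt1 rose by 0.83 (SE 0.14, adjusted p = 0.0003). In both types every P60 library lay above every P1 library. Barrier cells of P60 stood at 837, 868 and 1004 CPM, so that the blood endothelial types of P60 overlapped. Lymphatic cells were far lower, at 0, 5.63 and 103 CPM, with replicate 3 apart from the others. The whole class rose by 1.43 (SE 0.11, adjusted p = 1.5e-06), and without barrier and lymphatic cells the difference was 1.41 (SE 0.12, adjusted p = 2.2e-06).

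Tek (ENSMUSG00000006386, chr4:94739289-94874976, plus strand), the angiopoietin receptor, rose in endothelium and was also present in fibroblasts. Endothelial cells held 97.7, 99.2 and 91.3 CPM at P1 and 150.3, 134 and 178 CPM at P60, with no overlap. Tek rose by 0.71 (SE 0.13, adjusted p = 0.001), and without barrier and lymphatic cells the difference was 0.78 (SE 0.15, adjusted p = 0.0014). Cd300lg cells (0.88, SE 0.18, adjusted p = 0.0018) and arterial cells (0.83, SE 0.19, adjusted p = 0.0036) both rose. Lymphatic cells of P60 were the lowest endothelial type, at 64.7, 84.5 and 49.5 CPM. Epineurial fibroblasts held 54.0, 57.2 and 55.6 CPM at P1 and 63.9, 63.1 and 95.1 CPM at P60, with no overlap, and the difference did not pass the test (0.35, SE 0.16, adjusted p = 0.1). This was 57.9% of the endothelial level at P1 and 48.0% at P60, while the 8 endothelial markers had medians of 1.25% and 0.983% there. Of these markers 0 reached the share of Tek at P1 and 1 at P60. The fibroblast class held 19.6, 23.1 and 18.9 CPM at P1 and 37.4, 33.2 and 51.9 CPM at P60, with no overlap, and Tek rose by 1.01 (SE 0.16, adjusted p = 0.00054), while the epineurial share of the class differed between the ages as given for Angpt1. In endoneurial fibroblasts, at 1.34, 2.52 and 2.34 CPM at P1 and 3.52, 5.34 and 8.33 CPM at P60, Tek rose by 1.52 (SE 0.46, adjusted p = 0.014), which was not called without P60 replicate 3 (1.19, SE 0.57, adjusted p = 0.097). The direction was opposite in perineurial cells. Perineurial cells held 18.9, 17.3 and 11.6 CPM at P1 and 5.40, 6.01 and 7.90 CPM at P60, with no overlap. Tek fell by 1.27 (SE 0.25, adjusted p = 0.00072) in perineurial cells, called in 6 of 6 fits with 1 library left out.

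Tie1 (ENSMUSG00000033191, chr4:118471191-118490061, minus strand), the partner of Tek, differed little with age in Cd300lg cells. They held 248, 248 and 235 CPM at P1 and 229.6, 231 and 258 CPM at P60 (-0.01, SE 0.12, adjusted p = 0.96). Arterial cells held 265, 315 and 289 CPM at P1 and 213, 191 and 224 CPM at P60. The ages did not overlap, Tie1 fell by 0.47 (SE 0.16, adjusted p = 0.031), and the fall was not called when P1 replicate 1, P1 replicate 2, P1 replicate 3, P60 replicate 1 or P60 replicate 2 was left out (-0.53 to -0.41, adjusted p = 0.052 to 0.13). At P60 lymphatic cells stood at 252, 253 and 243 CPM, overlapping with Cd300lg cells, and barrier cells lowest at 163, 137 and 171 CPM. The whole class fell by 0.46 (SE 0.11, adjusted p = 0.0059), and without barrier and lymphatic cells the difference was -0.17 (SE 0.11, adjusted p = 0.27). For Kdr, Tie1, Vegfc and Pgf, then, the fall over the whole class was not called in the endothelial cells other than barrier and lymphatic, while Flt1 and Tek rose either way. In those cells 2 of 8 members tested changed, against 36.1% of all genes. This sum leaves cells out at P60 only, so the 36 P1 cells nearest to the lymphatic markers stay in it. Any P1 cells like the barrier type stay in it too, as none took that name. Relative to other P1 sub-clusters, those named Cd300lg scored 0.509 and 0.513 for barrier markers and the arterial sub-cluster 0.683. The sum also pools Cd300lg and arterial cells, and in arterial cells alone Kdr fell by 2.09.

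**Figure D2:**
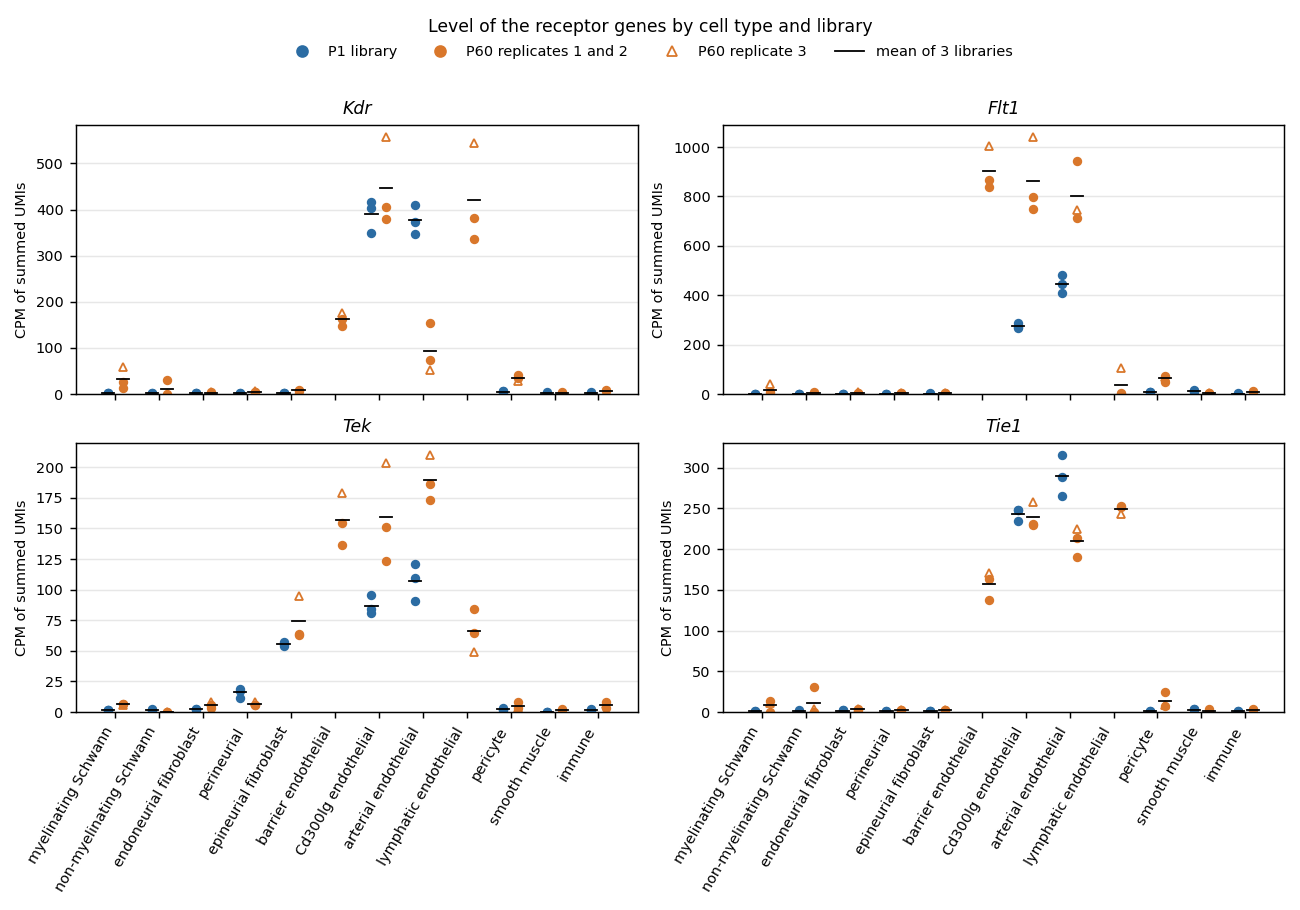
Levels of the 4 receptor genes, as CPM of summed UMIs, by cell type, drawn as for the ligands with 1 point per library. Arterial Kdr goes from 372, 410.0 and 348 CPM at P1 to 154, 73.0 and 51.5 CPM at P60, Flt1 is low in lymphatic cells, and Tek is also found in epineurial fibroblasts.

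**Figure D3:**
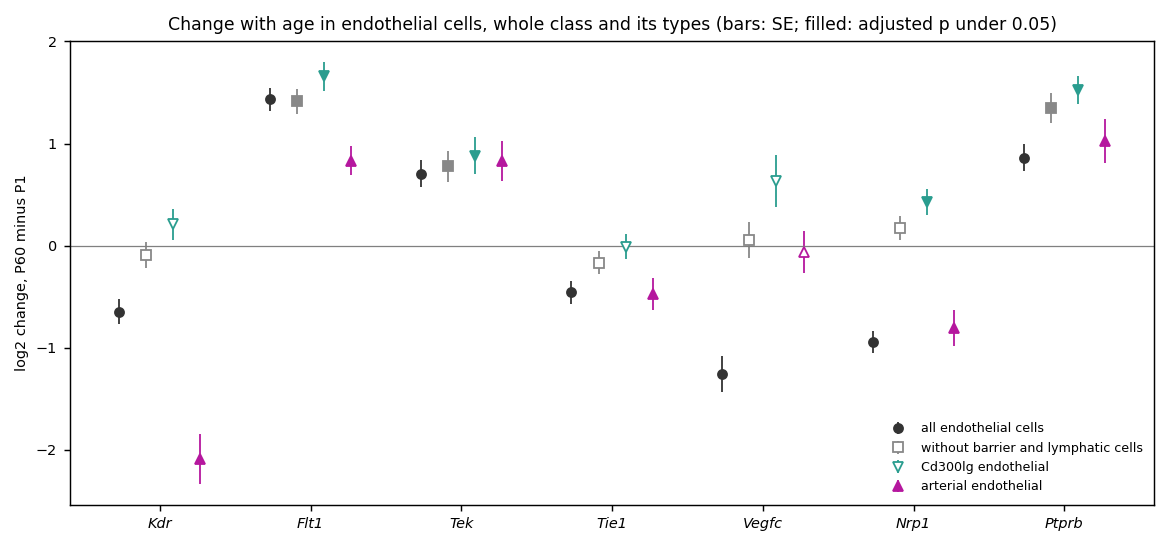
Log2 change with age (P60 minus P1, with SE) in endothelial cells taken as a whole, without barrier and lymphatic cells, and by type; filled symbols have an adjusted p under 0.05. Kdr, Tie1 and Vegfc lie below 0 for the whole class and nearer 0 without barrier and lymphatic cells, while Flt1 and Tek, and the relative Ptprb, lie above 0 in each.

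Outside the endothelium, where Flt1 is also known from monocytes and macrophages, its level was a few percent of the endothelial level or less in each class. Flt1 passed the test as higher at P60 in fibroblasts (2.16, SE 0.25, adjusted p = 7.5e-05), Schwann cells (3.13, SE 0.75, adjusted p = 0.0038), mural cells (1.61, SE 0.39, adjusted p = 0.0085) and immune cells (2.08, SE 0.57, adjusted p = 0.014). Its P60 levels were 0.574, 0.955, 3.47 and 0.999% of the endothelial level in these classes, and 5 to 8 of the 8 endothelial markers lay at or above that share in each. Among mural cells Flt1 stood higher beside these markers. It was at 3.17% in mural cells of P1, with 3 of the 8 markers as high, at 3.63% in smooth muscle cells of P1, with 1 as high, and at 7.58% in pericytes of P60, with 3 as high. The change in Schwann cells was not called without P60 replicate 3 (1.82, SE 1.20, adjusted p = 0.3), nor that in immune cells without P1 replicate 3 (1.70, SE 0.60, adjusted p = 0.058). Kdr in Schwann cells stood at 1.60, 2.16 and 2.49 CPM at P1 and 15.8, 21.4 and 23.4 CPM at P60, from 4, 6 and 10 UMIs, and rose by 3.21 (SE 0.45, adjusted p = 4.2e-05). Its P60 share, 8.44% of the endothelial level, lay above all 8 endothelial markers there (1.79 to 7.51%). Pericytes of P60 held 35.8, 41.5 and 27.5 CPM of Kdr, 14.6% of the endothelial level, and 2 of the 8 markers lay as high. Kdr rose by 2.71 (SE 0.47, adjusted p = 0.0003) in pericytes and by 1.68 (SE 0.18, adjusted p = 4e-05) in the fibroblast class. Its rise was also called in epineurial (1.70) and perineurial cells (1.95), so it was not particular to the Schwann class. In these types its P60 shares were 3.30% and 2.20%, with 2 of the 8 markers as high in each. Within the Schwann class the rise was called in myelinating cells (4.03), where the P60 share of 13.6% lay above all 8 markers (0.829 to 6.79%). The summed level of the 8 endothelial markers ran from 59.6 to 71.1 CPM at P1 and from 170.3 to 504 CPM at P60 in Schwann cells, and from 49.1 to 58.5 and 109 to 189 CPM in immune cells. In mural cells it ran from 444 to 483 and 334 to 734 CPM, in fibroblasts from 505 to 514 and 420.0 to 546 CPM, and in endothelial cells from 8199 to 8654 and 8844 to 11330.0 CPM, with no marker at 0 in any of these. The part of free or co-captured RNA in these values was not tested.

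**Figure D4:**
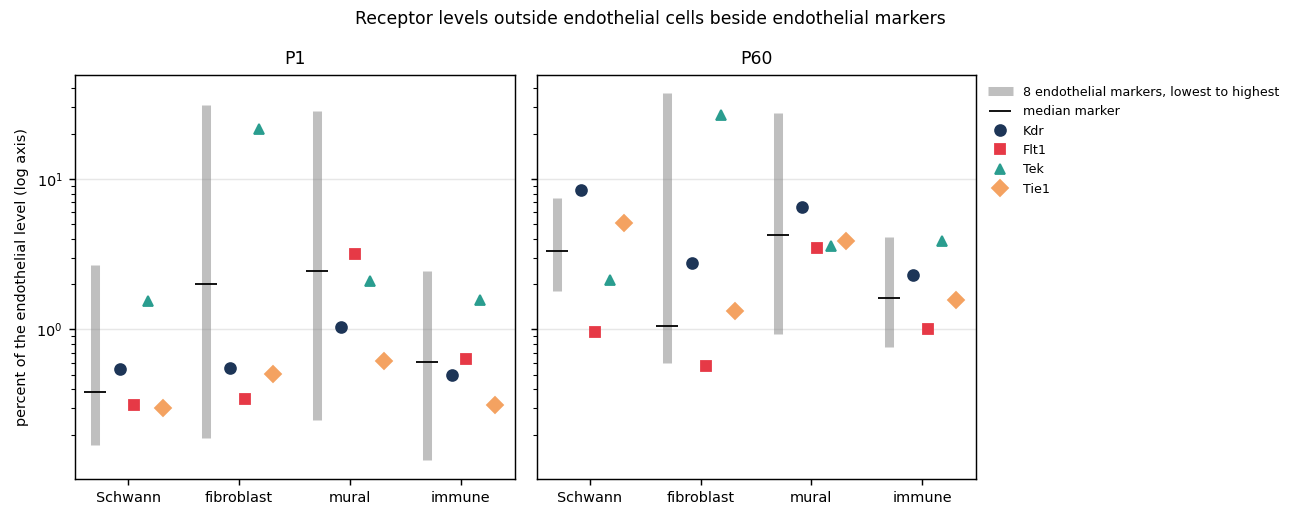
Levels of Kdr, Flt1, Tek and Tie1 outside the endothelium as percent of the endothelial level, beside the same percent for the 8 endothelial markers (bar from lowest to highest, tick at the median), on a log axis. Tek in fibroblasts (21.4% at P1 and 26.5% at P60) lies far above the marker medians but below the highest marker, while Flt1 at P60 lies below the marker median in Schwann, fibroblast, mural and immune cells.

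After thinning each cell to 1500 UMIs, the share of endothelial cells with a UMI gave the same order of ages as the CPM values for Flt1 and Kdr. Flt1 was found in 36.3, 36.8 and 33.4% of endothelial cells at P1 and in 62.1, 61.7 and 67.6% at P60. In fibroblasts, taken as a class that should lack it, the means were 0.172% and 0.704%, with median depths before thinning of 7232 and 5193 UMIs against 6288 and 4437 in endothelial cells. Without thinning, the endothelial means were 76.1% and 85.4%. Kdr was found in 38.9, 40.4 and 39.9% of endothelial cells at P1 and in 26.8, 26.0 and 30.9% at P60, with fibroblast means of 0.367% and 0.946% and unthinned endothelial means of 78.3% and 57.9%. Thinning kept 727 of 727 endothelial cells at P1 and 1734 of 1745 at P60. Both differences had an exact two-sided permutation p = 0.1, the smallest that 3 libraries against 3 allow. For Vegfa in fibroblasts the shares were 2.25, 2.98 and 2.79% at P1 and 2.29, 2.74 and 8.42% at P60 (exact permutation p = 0.8), with P60 replicate 3 again apart.

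Many genes changed with age in these sums, and the members are read against that background. In fibroblasts 8 of 10 members tested changed, 6 higher and 2 lower, where 59.3% of all genes tested changed, 30.8% higher and 28.5% lower. In endothelial cells 6 of 9 changed, 2 higher and 4 lower, against 40.3% of all genes, 21.1% higher and 19.2% lower. The counts were 3 of 6 in Schwann cells against 37.4%, 3 of 5 in mural cells against 33.6%, and 2 of 2 in immune cells against 38.3%. Without P60 replicate 3 the count in Schwann cells was 1 of 6, against 26.5% of all genes. Among endothelial types, 2 of 7 changed in Cd300lg cells (background 32.1%) and 4 of 5 in arterial cells (30.6%). Among mural types, 4 of 5 changed in pericytes (27.1%) and 1 of 2 in smooth muscle cells (40.7%). Among fibroblast types the counts were 4 of 5 in endoneurial fibroblasts (47.3%), 5 of 6 in perineurial cells (57.0%) and 4 of 9 in epineurial fibroblasts (46.1%). They were 1 of 4 in myelinating (26.5%) and 1 of 2 in non-myelinating Schwann cells (33.8%).

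Whether a gene's change differed between classes was tested in 1 model over the 5 classes with a library term. The change with age differed between classes for 6 of the 10 members, Vegfb, Vegfc, Pgf, Kdr, Angpt2 and Tie1, where 60.1% of 13857 genes did. Between endothelial cells and fibroblasts alone 30.3% of all genes differed, between endothelial and Schwann cells 23.6%, and between immune and mural cells 19.4%. The change of Pgf in endothelial cells minus that in fibroblasts was -2.72 (SE 0.34, adjusted p = 6.6e-08). For Angpt2 the same difference was 2.41 (SE 0.21, adjusted p = 2.7e-11), with a fall in fibroblasts and overlapping ages in endothelial cells. A difference between classes did not pass the test for Flt1 (adjusted p = 0.11), Tek (adjusted p = 0.057), Vegfa (adjusted p = 0.12) or Angpt1 (adjusted p = 0.62).

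**Figure D5:**
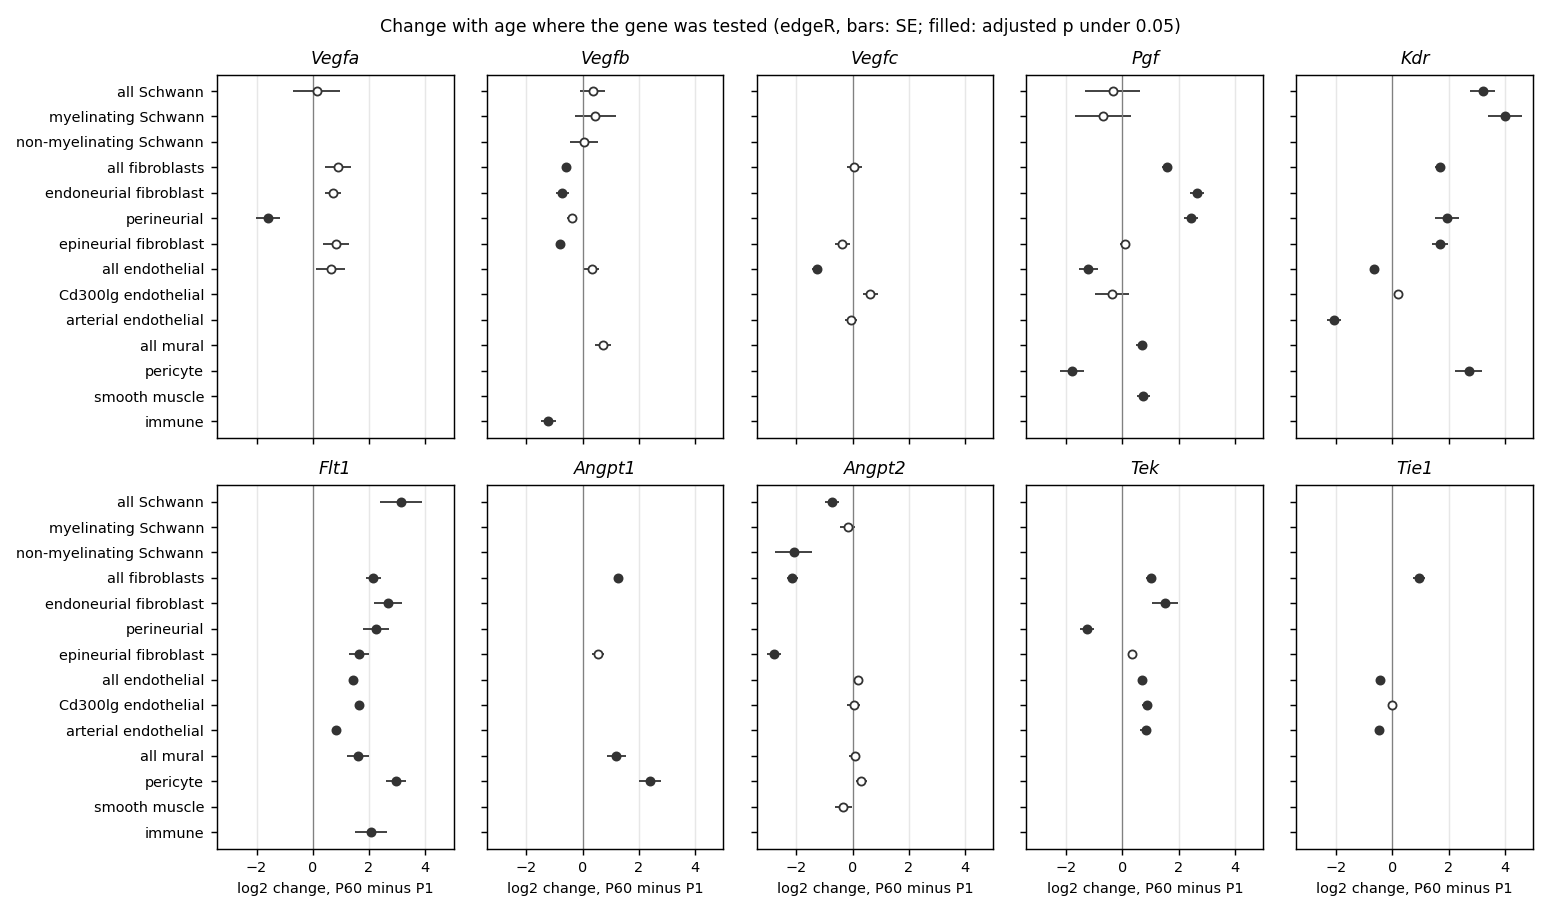
Log2 change with age (P60 minus P1, with SE) of the 10 members in the classes and types where each had enough counts to be tested; filled symbols have an adjusted p under 0.05. Pgf rises in perineurial cells and endoneurial fibroblasts and falls in pericytes, and Angpt2 falls in epineurial fibroblasts.

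The co-receptors and related ligands were read beside the members. Nrp1, a co-receptor of VEGF-A, held 176, 196 and 177 CPM in perineurial cells at P1 and 40.1, 39.8 and 49.4 CPM at P60, and fell by 2.05 (SE 0.13, adjusted p = 2.9e-08). In endothelial cells it fell by 0.95 (SE 0.11, adjusted p = 2.9e-05), and without barrier and lymphatic cells the difference was 0.17 (SE 0.12, adjusted p = 0.27). Arterial cells held 437, 394 and 435 CPM at P1 and 228, 316 and 184 CPM at P60, and Nrp1 fell by 0.80 (SE 0.18, adjusted p = 0.0024) in them. In Cd300lg cells it rose by 0.43 (SE 0.12, adjusted p = 0.017), which was not called when P1 replicate 1, P1 replicate 2, P1 replicate 3 or P60 replicate 1 was left out (0.36 to 0.44, adjusted p = 0.062 to 0.072). Its level in barrier cells of P60 was 90.9, 81.5 and 81.2 CPM, far below Cd300lg cells at 468, 428 and 396 CPM. Nrp2, which binds VEGF-C, rose by 1.97 (SE 0.13, adjusted p = 4.9e-08) in endoneurial fibroblasts. In pericytes Nrp2 rose by 1.50 (SE 0.22, adjusted p = 7.2e-05). Ptprb, the phosphatase that dampens Tek, rose by 1.52 (SE 0.13, adjusted p = 1.1e-06) in Cd300lg cells.

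Flt4, the VEGF-C receptor, stood at 537, 338 and 548 CPM in lymphatic cells of P60 and at 27.7, 22.1 and 19.8 CPM in Cd300lg cells. Vegfd, a further lymphatic ligand, held 40.9, 33.6 and 38.5 CPM in epineurial fibroblasts at P1 and 162, 172 and 135 CPM at P60, and rose by 2.00 (SE 0.14, adjusted p = 1.9e-06). Svep1, an extracellular matrix protein that binds Tie1, rose by 1.61 (SE 0.15, adjusted p = 1.2e-05) in epineurial fibroblasts. In perineurial cells Svep1 fell by 0.71 (SE 0.14, adjusted p = 0.00087), so these sheath types went in different directions. Angpt4, a further ligand of Tek, held 3.24, 0 and 2.76 CPM in mural cells at P1 and 12.1, 18.8 and 19.7 CPM at P60, and rose by 3.20 (SE 0.56, adjusted p = 0.0012).

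A list of 16 genes known to respond in endothelium to VEGF, Notch, angiopoietin or flow signals gave 15 genes tested in endothelial cells. Of these 1 rose and 8 fell, with a median of -1.27 against 0.01 over all genes, of which 40.3% changed. Without barrier and lymphatic cells 2 of 14 rose and 6 fell, with a median of -0.24 against 0.02, where 36.1% of all genes changed. The chemokine receptor gene Cxcr4 fell by 4.25 (SE 0.25, adjusted p = 1.3e-07). The basement membrane gene Nid2 fell by 3.04 (SE 0.17, adjusted p = 7.4e-08), and Apln, which encodes a peptide hormone of sprouting vessels, fell by 2.41 (SE 0.27, adjusted p = 2.7e-05). Plaur, the urokinase receptor gene, rose by 1.15 (SE 0.19, adjusted p = 0.00047).

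In Cd300lg cells 2 of 14 rose and 6 fell, with a median of 0.06 against 0.02 over all genes, of which 17.2% rose and 14.9% fell. Without P60 replicate 3 the counts were 3 and 7 and the median was -0.46. There Apln held 277, 283 and 259.6 CPM at P1 and 6.16, 27.6 and 10.6 CPM at P60, and fell by 4.09 (SE 0.28, adjusted p = 1.4e-07). The genes that rose were Rcan1, by 1.42 (SE 0.27, adjusted p = 0.001), and Klf2, a flow-induced transcription factor, by 0.74 (SE 0.15, adjusted p = 0.0014). Cxcr4, Nid2 and Apln were thus lower in Cd300lg cells as in the whole class. In arterial cells 1 of 10 rose and 6 fell, with a median of -1.31, where 16.3% of all genes rose and 14.3% fell, and Esm1, a gene of tip cells, fell by 3.11 (SE 0.29, adjusted p = 6.5e-07).

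Vegfa is a classic target of hypoxia signalling, so 16 genes of that response were counted where Vegfa was tested. In perineurial cells, where Vegfa fell, 9 of 16 rose and 2 fell, with a median of 0.79 against 0.01 over all genes. In epineurial fibroblasts 7 of 15 rose and 3 fell (median 0.32), and in endoneurial fibroblasts 7 of 16 rose and 4 fell (median 0.39). The counts were 7 and 3 of 16 in the fibroblast class, 6 and 3 of 16 in endothelial cells and 5 and 2 of 13 in Schwann cells, higher and lower in that order. Of all genes, 28.7% rose and 28.2% fell in perineurial cells, 24.1% and 22.0% in epineurial and 23.7% and 23.6% in endoneurial fibroblasts, 30.8% and 28.5% in the fibroblast class, 21.1% and 19.2% in endothelial and 19.4% and 18.0% in Schwann cells.

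In perineurial cells Ndrg1 rose by 5.55 (SE 0.14, adjusted p = 3.3e-11), and the glucose transporter gene Slc2a1 rose by 5.18 (SE 0.14, adjusted p = 3.7e-11). Slc2a1 was also a marker used to name perineurial and barrier cells. Epas1, which encodes a hypoxia-inducible factor, rose by 4.92 (SE 0.29, adjusted p = 1.6e-08) in perineurial cells. In epineurial fibroblasts Epas1 rose by 2.49 (SE 0.26, adjusted p = 2.6e-05). The glycolytic gene Ldha fell by 1.09 (SE 0.14, adjusted p = 1.7e-05) in perineurial cells, and in epineurial fibroblasts it fell by 0.53 (SE 0.19, adjusted p = 0.039). In the epineurial cells of P60 replicate 3, where Vegfa was high, 5 of the 16 genes lay above both other P60 libraries and 9 below both, and 46.5% of all genes lay above. In pericytes, where Vegfa was likewise highest in that library (7.16, 5.19 and 18.4 CPM), 9 of 13 lay above both and 4 below both, against 36.2% of all genes above. Over the 9 classes and types counted, the number above ran from 3 of 15 in endoneurial fibroblasts to those 9 of 13.

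The pattern of each member over 66 sums of type and library was set beside those of 12311 genes by Pearson correlation of log2(CPM + 10), as a description, since sums of 1 library share its depth. The nearest genes to Kdr were Gpihbp1 (r = 0.98), Spns2 (0.97) and Tie1 (0.96). For Tie1 they were Myct1 (0.99), Pecam1 (0.98) and Ushbp1 (0.98), and for Flt1 Mecom (0.97), Adgrl4 (0.96) and Ptprb (0.96). Tek lay nearest to Cyb561 (0.93), Bvht (0.91) and Hs3st1 (0.90). Among ligands, Vegfc lay nearest to Ssu2 (0.92), Pgf to Susd2 (0.84), Angpt1 to Gm26523 (0.88), Angpt2 to Emid1 (0.77), Vegfa to Nfix (0.76) and Vegfb to Zfp383 (0.58). Of the 10 members Vegfb had the weakest nearest match.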

How the data were processed

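Single-cell libraries were made from dissociated sciatic nerve, 3 of P1 and 3 of P60 mice. The authors aligned reads and counted UMIs with Cell Ranger 2.0.2, and the deposited matrices hold raw UMI counts per gene and cell, with no normalization. The submitters' processing notes name GRCm38.p5 and the gene identifiers are mouse, while the study's methods name a human build.

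Cells with 500 to 5000 genes, more than the study states for the same filter, were clustered per age in Seurat 5.3.0 (R 4.3.3) after the study's workflow, with counts scaled to 10000 per cell where the study's methods point to 100000 (an alternative here), variable genes by the study's limits less the members and 7 relatives (1989 at P1 and 1986 at P60), 10 principal components, 30 neighbours, and a resolution of 0.5 (P1) or 0.4 (P60). Each cluster was divided again at a resolution of 0.4. A sub-cluster took a class by the mean level of the markers on a list relative to the second-highest sub-cluster, which had to reach 0.15 with 3 markers in at least 10% of cells. It was left unnamed as mixed where a second class reached 0.4 of the leading score, and a finer type needed a score of 0.3 and a lead of 1.4. These limits were set after the data were seen. Doublets were removed only by the limit of 5000 genes, and Scrublet (scanpy 1.11.5), which left out 2.74 to 3.67% of cells per library, was an alternative.

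UMIs were summed per library and type for types with at least 20 cells in every library. Sums were tested with edgeR 4.0.16 (quasi-likelihood, TMM scaling, filterByExpr), with Benjamini-Hochberg adjustment over all genes tested. Differences between classes were tested in 1 edgeR model with library, class and class-by-age terms. Shares of cells with a UMI, after thinning to 1500 UMIs, were compared by exact two-sided permutation in scipy 1.17.1. An upper limit beside a count of 0 is 3 counts, and it covers counting error only. In counts simulated for the endothelial sums (10681 genes), 73.5% of changes of 1 on the log2 scale and 96.9% of changes of 2 were recovered, and for the mural sums (8374 genes) 45.4% and 85.4%.

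The members and lists were chosen with earlier results of these data known. All members and relatives were named, with up to 3 genes per direction with the largest called change from each of the other lists and the 3 most similar genes per member (for 6 ligands only the first is printed). Alternatives were DESeq2 1.42.0, scaling by library size alone, no filter on low counts, 1 library left out, a replicate term, other clusterings and cell filters, and other thinning depths.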

Additional observations from a re-analysis of the deposited data

Results flagged for a closer look

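The change with age differed between classes for 6 members, by the class-by-age term of the edgeR model with adjustment over all genes. This is 6 of 10 members where 60.1% of 13857 genes differed, so the count itself is that of the background. For each, the pair of classes given has a log2 change (P60 minus P1) in the first class less that in the second. Vegfb differed by -1.97 (SE 0.41, adjusted p = 0.00045) between immune and mural cells, and Vegfc by -1.27 (SE 0.27, adjusted p = 0.00043) between endothelial cells and fibroblasts. Pgf differed by -2.72 (SE 0.34, adjusted p = 6.6e-08) and Tie1 by -1.35 (SE 0.24, adjusted p = 3.8e-05) between endothelial cells and fibroblasts. Angpt2 differed the other way in the same pair, by 2.41 (SE 0.21, adjusted p = 2.7e-11). Kdr differed by -3.73 (SE 0.60, adjusted p = 9.1e-06) between endothelial and Schwann cells, the latter on 20 UMIs at P60.

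The 266 P60 cells that carried endothelial and mural markers together entered no comparison. There were 74, 119 and 73 of them in replicates 1, 2 and 3, with a median of 8489 UMIs per cell. Kdr stood at 352, 378 and 539 CPM in them (mean 423) and Angpt2 at 88.5, 90.1 and 81.7 CPM (mean 86.8), so both an endothelial receptor and a mural ligand were present. Whether they are pairs of cells captured together was not tested.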

How the results depend on the processing

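Of 1045 refits of the members' changes with age, 960 kept direction and call, 38 lost the call, 15 gained it and 32 changed sign, 1 of them for a called change. That change, Vegfc in endothelial cells, went from -1.26 to 0.053 without barrier and lymphatic cells, a set added after the data were seen; Vegfb went to -0.19, and 2 members were called in place of 6. The other sign changes were of differences that were not called. With 1 library left out, the ranges of the changes were -6.92 to 0.59 for Vegfa and -7.03 to 0.47 for Pgf in Schwann cells (P60 UMIs then near or at 0, so the low ends are no bounds), -0.089 to 0.26 for Vegfc in fibroblasts, -0.23 to 0.97 for Vegfa in endothelial cells and -0.077 to 0.26 for Angpt2 in mural cells. By type they were -0.079 to 1.19 for Vegfa and -0.0019 to 0.22 for Pgf in epineurial fibroblasts, -0.55 to 0.99 for Vegfb in myelinating and -0.56 to 0.28 in non-myelinating Schwann cells, -2.54 to 0.079 for Pgf, -0.085 to 0.23 for Angpt2 and -0.058 to 0.016 for Tie1 in Cd300lg cells, and -0.22 to 0.088 for Vegfc in arterial cells. Clustering on a total of 100000 gave 0.90 for Pgf in Schwann cells, -0.025 for Vegfb in non-myelinating cells and -0.32 for Angpt2 in Cd300lg cells. Angpt2 was -0.024 in mural cells with scaling by library size alone and -0.029 in Cd300lg cells without cells holding more UMIs of another class. Tie1 in Cd300lg cells was 0.0007 with another clustering seed, and Vegfc in arterial cells was 0.11 with the members kept in the clustering.

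Members called with 1 library left out ran from 1 to 3 in Schwann cells (1 without P60 replicate 3), 1 to 3 in mural cells (1 without P1 replicate 2) and 1 to 2 in immune cells (1 without P1 replicate 3). In mural cells 6 were called with no filter on counts and 1 by DESeq2, and in immune cells 4 with no filter. Shares of cells ranged from -0.159 to 2.90 points for Vegfa in fibroblasts and from -2.12 to 0.937 for Angpt2 in mural cells. Without the cells of highest Scrublet score the P1 means were 90.8 CPM for Angpt2 in mural cells, and 102 CPM for Tek and 273 CPM for Tie1 in endothelial cells, the last 269 CPM without cells holding more UMIs of another class. The causes were not tested.

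Deviations of same-numbered P1 and P60 libraries correlated at 0.0271, 0.0942 and 0.0388, and not every library correlated best with its own number, so the numbers do not pair them. With a replicate block, the members called were 9 for fibroblasts, 6 for endothelial cells, 3 for mural cells, 2 for Schwann cells and 2 for immune cells. The small P60 sums of Schwann cells (362 cells) limit what could be detected.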
